A study of Mus musculus with 19 samples.

Results

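Renin-angiotensin, endothelin and mineralocorticoid genes were followed in mouse hearts by RNA sequencing. The 9 genes were chosen by name for their roles in these hormone systems, with earlier results of these data known: Agt, Ace, Enpep, Agtr1a, Agtr1b, Agtrap, Edn1, Ednra and Nr3c2. Of the 9, 8 have a row among the 29726 genes of the deposited table, and Agtr1b, the second mouse gene for the type 1 angiotensin receptor, was not analysed here. All 8 genes with a row reached the minimum for testing, 1 FPKM in at least 4 libraries, as did 10866 genes in all.

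The study asked how a gut microbiome from colitis-prone donors affects the heart. Every recipient was a C57BL/6NTac mouse labelled wild type, raised germ-free and 2 months old, that was given a fecal transplant. The groups were 5 females with the dysbiotic microbiome (F_DM), 5 females with the normal microbiome (F_NM), 5 males with the dysbiotic microbiome (M_DM) and 4 males with the normal microbiome (M_NM). Dysbiotic transplants came from Il10-/- donors, which lack the anti-inflammatory cytokine interleukin 10, and normal transplants came from wild-type donors. None of these 4 groups stayed germ-free, so the comparison is between donor microbiomes and not with the absence of microbes. Per the labels, a frozen piece of heart from each mouse was used and polyadenylated RNA was sequenced; neither cages nor batches are given, so a cage or batch that followed the groups cannot be told apart from the microbiome. The labels name the cells cardiocytes, and all 8 listed cardiomyocyte markers were tested, but markers of endothelium, fibroblasts, macrophages and other cells were present too, as in whole heart tissue.

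In the renin-angiotensin system, angiotensinogen is cut by renin and then by angiotensin-converting enzyme to give angiotensin II, which constricts vessels and promotes growth of heart muscle and scar through the type 1 receptor. Endothelin is a second vasoconstrictor peptide, made mainly by endothelial cells, that acts on heart muscle and vessel muscle through its A receptor. The mineralocorticoid receptor is the nuclear receptor for aldosterone; in heart muscle, which has little of the enzyme that inactivates glucocorticoids, it is also occupied by glucocorticoids.

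Nr3c2, the gene for the mineralocorticoid receptor, was higher with the dysbiotic microbiome, by 0.30 ± 0.07 on the scale of log2(FPKM + 1) over both sexes (SE, 10 against 9 hearts; limma adjusted p = 0.0123). It was the 1 gene of the 8 that passed in that comparison, in which 5.67% of all genes tested passed (3.34% higher and 2.33% lower). Enpep, Nr3c2 and Agtrap passed between female and male hearts, in which 31.4% of all genes passed: Enpep was lower and the other 2 were higher in females. For Agt, Ace, Agtr1a, Edn1 and Ednra no difference passed the test in any of the 5 comparisons. Values here are FPKM, fragments per kilobase of transcript, scaled to a common number of mapped fragments, so levels can be set side by side between genes of different length. Tests were run with limma on log2(FPKM + 1); each adjusted p is two-sided, by the Benjamini-Hochberg method over the 10866 genes, with 0.05 as the threshold.

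The stretches upstream of the start sites of Nr3c2 and Enpep are shown because these genes carried the microbiome difference and the clearest sex difference of the set. Each runs from 250 to 51 bases before the RefSeq start (GRCm38.p6), 5′ to 3′ on the gene's own strand; capitals mark GGGCGG, the GC box read by Sp-family factors, or its complement CCGCCC. The Nr3c2 window is chr8:76902080-76902279 on the plus strand, and the Enpep window is chr3:129332800-129332999 on the minus strand.
Nr3c2: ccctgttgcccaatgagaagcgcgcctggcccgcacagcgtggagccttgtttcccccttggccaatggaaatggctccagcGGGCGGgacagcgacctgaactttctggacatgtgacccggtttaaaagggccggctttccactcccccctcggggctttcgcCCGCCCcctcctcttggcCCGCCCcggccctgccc
Enpep: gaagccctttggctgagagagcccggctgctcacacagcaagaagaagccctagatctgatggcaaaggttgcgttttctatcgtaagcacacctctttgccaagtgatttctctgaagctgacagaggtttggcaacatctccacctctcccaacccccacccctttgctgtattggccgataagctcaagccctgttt
The Nr3c2 window holds 3 GC boxes and the Enpep window has none. Among 32851 promoter windows of 200 bases, 24.6% hold at least 1 GC box on either strand. Of the members, Ace also has 3 at its first start, with 2 of them overlapping. Neither CACGTG, the canonical E-box bound by clock and Myc factors, nor AGAACA, a half-site of the corticosteroid receptors, occurs on either strand in the windows of the 8 members in the promoter table, Agtr1b included; 4.34% and 13.2% of all windows hold these motifs. The Nr3c2 gene as annotated in GENCODE M21 (GRCm38) spans chromosome 8 from 76899442 to 77245012 on the plus strand, so it has a start upstream of the window shown.

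**Figure D1:**
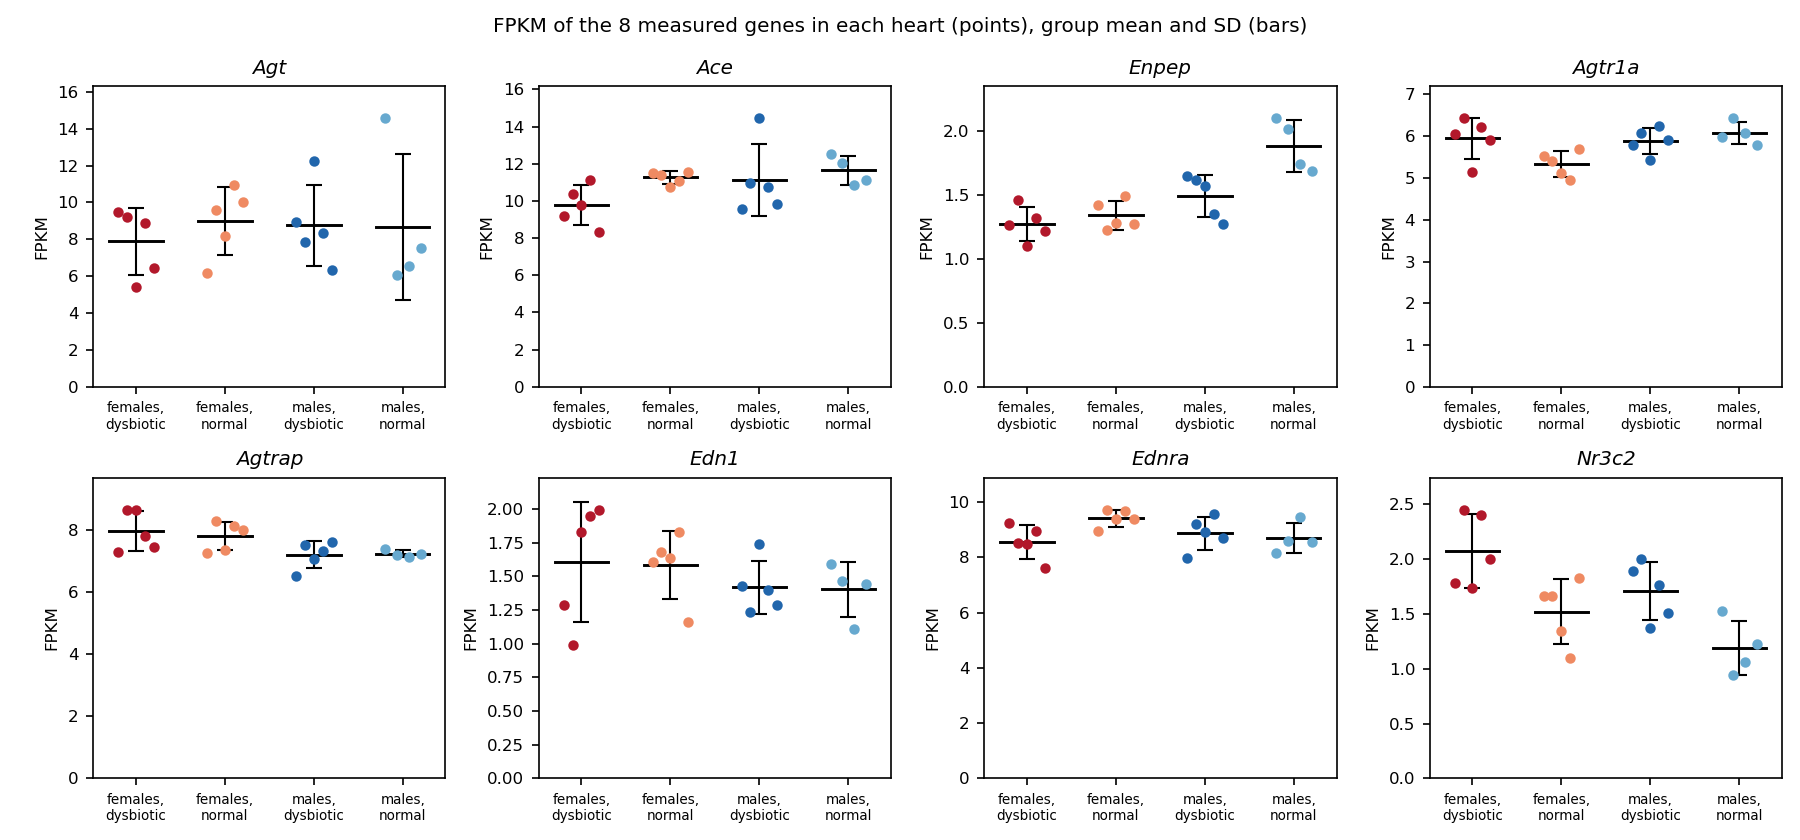
FPKM of the 8 measured genes in each heart, by group; points are hearts, the long bar is the group mean and the whiskers are the SD (n = 5, 5, 5 and 4). Every vertical axis starts at 0. Nr3c2 lies higher in the dysbiotic groups of both sexes with overlap between the groups, and Enpep of the males with the dysbiotic microbiome lies entirely below that of the males with the normal microbiome. The change of Enpep in males did not pass (limma adjusted p = 0.0918).

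Ordered by mean FPKM over the 19 hearts, Ace was highest with 10.9 ± 1.33 FPKM (SD), followed by Ednra with 8.89 ± 0.593, Agt with 8.57 ± 2.32, Agtrap with 7.56 ± 0.554 and Agtr1a with 5.80 ± 0.439 FPKM. Nr3c2 with 1.65 ± 0.416, Edn1 with 1.51 ± 0.289 and Enpep with 1.48 ± 0.271 FPKM formed a low set. Ace was above Ednra in 18 of 19 hearts, Agtrap above Agtr1a in 19 and Agtr1a above Nr3c2 in 19. The order of the others was not kept from heart to heart: Ednra was above Agt in 12 of 19, Agt above Agtrap in 13, Nr3c2 above Edn1 in 10 and Edn1 above Enpep in 11. Agt varied most between hearts, with its highest value 2.68 times its lowest, followed by Nr3c2 with 2.59 times; for Ednra, Agtrap and Agtr1a this ratio was 1.27 to 1.33. From the steps between low values, libraries were estimated at 16.4 to 23.0 M read pairs, which puts about 119 to 322 pairs on Nr3c2, 83.2 to 193 on Enpep and 41.3 to 94.2 on Edn1 in each library, and 669 to 1370 on Ace. These pair numbers are rough. They take the longest transcript of each gene, and only 13.1% to 16.4% of low values lay on a whole-read step. The step was searched for only within a preset range, which also bounded the depths that could come out. The 19 libraries correlated with each other at 0.980 to 0.996.

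Agt encodes angiotensinogen, the substrate from which all angiotensins are cut and a protein made mainly by the liver (chromosome 8, 124556534 to 124569706, minus strand; this and the other gene positions are those of GENCODE M21 on GRCm38). Agt was at 9.49, 9.19, 5.43, 8.90 and 6.43 FPKM in F_DM hearts and at 6.20, 9.56, 8.16, 10.9 and 10.01 FPKM in F_NM hearts. In males it was at 8.96, 7.84, 12.3, 8.34 and 6.36 FPKM in M_DM hearts and at 14.6, 6.05, 6.55 and 7.52 FPKM in M_NM hearts. The groups overlapped widely, and 1 M_NM heart held the highest value of all. The change was -0.17 ± 0.22 in females (limma adjusted p = 0.840), 0.06 ± 0.23 in males (0.950) and -0.05 ± 0.16 over both sexes (0.907; 95% interval -0.39 to 0.28). The interval is the widest of the set.

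Agt moved in part with liver markers from heart to heart. The summed FPKM of 18 liver markers, none of them at 0 in all hearts and 17 past the minimum for testing, was 44.5 to 433 in F_DM, 111 to 459 in F_NM, 27.9 to 549 in M_DM and 108 to 1110 in M_NM hearts. In each of the 4 groups the heart with the lowest liver sum also had the lowest Agt, and M_NM replicate 1 had the highest of both. In F_DM and M_DM the highest Agt and the highest liver sum were in different hearts. In M_DM replicate 3 had the highest Agt, 12.3 FPKM, with a liver sum of 479. Replicate 1 of M_DM had the highest liver sum, 549, with Agt at 8.96 FPKM. Agt was also high in the hearts with the highest sums of 6 atrial markers, M_DM replicate 3 (4239) and M_NM replicate 1 (3537), against 1407 to 3084 in the others. With the log liver sum in the model the change of Agt over both sexes was 0.05 (limma adjusted p = 0.851), without the 4 libraries at the extremes of the liver sum 0.23 (0.280), and with the log atrial sum -0.18 (0.600); the part of liver or atrial RNA in the values of Agt was not tested beyond these fits. None of the 17 liver markers tested passed with limma in any of the 5 comparisons, and none had an unadjusted p under 0.05, against 17.4% of all genes between the microbiomes over both sexes.

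**Figure D2:**
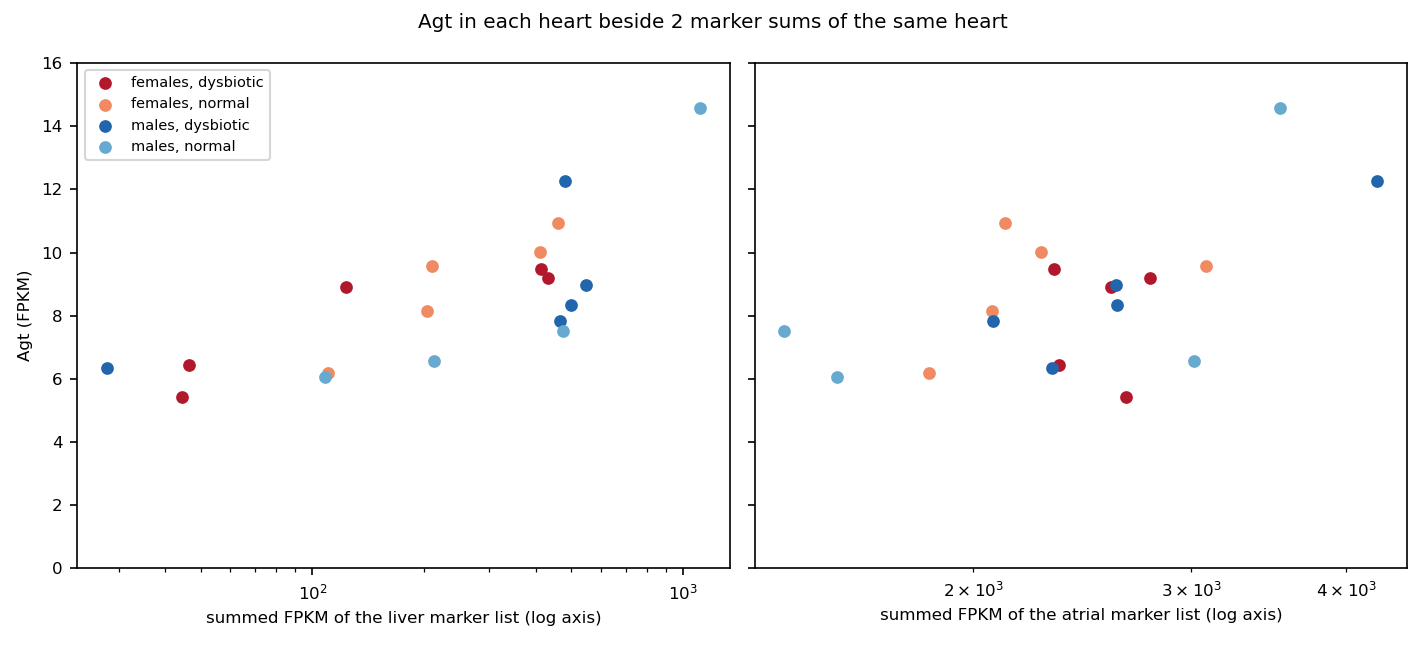
Agt in each heart (vertical axis, FPKM) against the summed FPKM of 18 liver markers (left, log axis) and of 6 atrial markers (right, log axis); each point is a heart, coloured by group. The heart with the highest Agt, 14.6 FPKM, is a male with the normal microbiome and has the highest liver sum, 1110.

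Ace encodes angiotensin-converting enzyme, which makes angiotensin II and degrades bradykinin (chromosome 11, 105967945 to 105989964, plus strand). Ace was at 9.19, 10.4, 9.78, 11.2 and 8.34 FPKM in F_DM hearts and at 11.5, 11.4, 10.8, 11.1 and 11.6 FPKM in F_NM hearts. It was at 9.59, 10.99, 14.4, 10.8 and 9.83 FPKM in M_DM hearts and at 12.5, 12.0, 10.9 and 11.1 FPKM in M_NM hearts. In females 4 of 5 dysbiotic values lay under every normal value, and in males 3 of 5 did while M_DM replicate 3 lay above all. The change was -0.19 ± 0.08 in females (limma adjusted p = 0.298), -0.07 ± 0.09 in males (0.787) and -0.13 ± 0.06 over both sexes (0.274), none past the threshold. Without M_DM replicate 3 the change over both sexes was -0.18 with limma adjusted p = 0.0308, so 1 library decided that call.

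Enpep encodes glutamyl aminopeptidase, which trims angiotensin II to angiotensin III (chromosome 3, 129269175 to 129332720, minus strand). Enpep was at 1.26, 1.46, 1.10, 1.32 and 1.22 FPKM in F_DM hearts and at 1.42, 1.23, 1.28, 1.49 and 1.28 FPKM in F_NM hearts. It was at 1.65, 1.62, 1.57, 1.35 and 1.28 FPKM in M_DM hearts and at 2.10, 2.01, 1.74 and 1.69 FPKM in M_NM hearts. All 5 M_DM values were below all 4 M_NM values, a ratio of means of 0.792, while the female groups overlapped with a ratio of 0.950. The share of all genes whose groups separate in this way was not counted, here or for the separations given below. The change in males was -0.21 ± 0.06 (limma adjusted p = 0.0918), in females -0.04 ± 0.06 (0.853) and over both sexes -0.13 ± 0.04 (0.0948). None of these passed, nor did the difference between the sexes in the response (0.17 ± 0.08, limma adjusted p = 0.696). After median-ratio scaling, the changes of Enpep in males (-0.23, limma adjusted p = 0.0458) and over both sexes (-0.15, limma adjusted p = 0.0406) passed.

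Agtr1a encodes the type 1 angiotensin receptor, the main receptor for the pressor action of angiotensin II (chromosome 13, 30336441 to 30382867, plus strand). Agtr1a was at 6.06, 6.43, 5.15, 6.23 and 5.91 FPKM in F_DM hearts and at 5.53, 5.40, 5.11, 4.95 and 5.70 FPKM in F_NM hearts. It was at 5.78, 6.08, 5.43, 6.25 and 5.91 FPKM in M_DM hearts and at 5.99, 6.43, 6.08 and 5.80 FPKM in M_NM hearts. The F_NM hearts were the low group: all 5 lay below all 4 M_NM hearts, and 4 of the 5 F_DM hearts lay above every F_NM heart. The change was 0.13 ± 0.05 in females (limma adjusted p = 0.231), -0.04 ± 0.06 in males (0.821) and 0.05 ± 0.04 over both sexes (0.600). The difference between the sexes in the response was 0.17 ± 0.08, with the lowest adjusted p of the 8 genes in that test (0.641), and did not pass.

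Agtrap encodes a protein that binds the type 1 receptor and promotes its internalisation (chromosome 4, 148077061 to 148088031, minus strand). It ranged over 7.27 to 8.64 FPKM in F_DM, 7.26 to 8.27 in F_NM, 6.51 to 7.60 in M_DM and 7.11 to 7.38 FPKM in M_NM hearts. Its change was 0.01 ± 0.04 over both sexes (limma adjusted p = 0.940, 95% interval -0.07 to 0.09), and the sign turned negative under median-ratio, upper-quartile and mitochondria-free scaling.

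Edn1 encodes the precursor of the main endothelin peptide (chromosome 13, 42301476 to 42307990, plus strand). Edn1 was at 1.29, 0.987, 1.83, 1.95 and 2.00 FPKM in F_DM hearts, 1.16 to 1.83 FPKM in F_NM, 1.24 to 1.74 in M_DM and 1.11 to 1.59 FPKM in M_NM hearts. The F_DM hearts spanned the F_NM range on both sides. The change over both sexes was 0.01 ± 0.07 (limma adjusted p = 0.981, 95% interval -0.15 to 0.16), with a sign that turned negative under the same 3 scalings.

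Ednra encodes the endothelin A receptor, which drives contraction of vessel muscle (chromosome 8, 77663031 to 77724464, minus strand). Ednra was at 9.24, 8.50, 8.47, 8.94 and 7.63 FPKM in F_DM hearts and at 8.95, 9.72, 9.39, 9.66 and 9.37 FPKM in F_NM hearts. In females 4 of 5 dysbiotic values lay below every normal value, while the male groups, at 7.98 to 9.58 FPKM in M_DM and 8.16 to 9.46 FPKM in M_NM hearts, overlapped throughout. The change was -0.13 ± 0.05 in females (limma adjusted p = 0.258), 0.03 ± 0.06 in males (0.901) and -0.05 ± 0.04 over both sexes (0.564). The gene 4933431K23Rik shares 91 exon bases with Ednra on the other strand and was at 0.641 to 1.23 FPKM. The strand setting of the counting is not given in the sources used here, so reads in those bases cannot be told apart. Nr3c2 and Ace share 247 and 295 exon bases with opposite-strand genes that reached at most 0.0454 and 0.00140 FPKM, and Edn1 shares 35 with one that reached 0.136 FPKM.

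Nr3c2 was at 1.78, 2.45, 1.74, 2.40 and 2.00 FPKM in F_DM hearts and at 1.67, 1.67, 1.34, 1.10 and 1.83 FPKM in F_NM hearts. It was at 1.895, 2.005, 1.37, 1.77 and 1.51 FPKM in M_DM hearts and at 1.52, 0.946, 1.06 and 1.23 FPKM in M_NM hearts. In each sex 3 of 5 dysbiotic hearts lay above every normal heart and none below all of them, so the groups overlapped. The mean was 2.08 ± 0.337 FPKM in F_DM and 1.52 ± 0.295 FPKM in F_NM hearts (SD, n = 5 each), a ratio of 1.36. In males it was 1.71 ± 0.264 FPKM in M_DM hearts (SD, n = 5) and 1.19 ± 0.250 FPKM in M_NM hearts (SD, n = 4), a ratio of 1.44.

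The change of Nr3c2 was 0.29 ± 0.09 in females (limma adjusted p = 0.120), 0.31 ± 0.10 in males (0.134) and 0.30 ± 0.07 over both sexes (0.0123; 95% interval 0.16 to 0.44). It passed over both sexes and in neither sex alone. The difference between the sexes in the response was -0.02 ± 0.14 (limma adjusted p = 0.984), with a 95% interval of -0.31 to 0.27. At a mean of 1.65 FPKM the added 1 shrinks the change, which was 0.46 with 0.1 added instead. In the authors' deposited table Nr3c2 has a ratio of mean FPKM of 1.38, with p = 0.000252 and q = 0.0197. The next lowest q among the members is 0.539, that of Ace. The call held in all 19 fits that left out 1 library (0.27 to 0.33, limma adjusted p 0.00523 to 0.0359) and failed in a fit without a term for sex (0.29, limma adjusted p = 0.0551). The change was 0.32 with the log liver sum in the model (limma adjusted p = 0.00685) and 0.29 with the log atrial sum (limma adjusted p = 0.0305). In the same comparison 2 of 9 endothelial markers and 1 of 9 pericyte and smooth muscle markers rose and none of either list fell. The median log2 change was 0.047 over the endothelial list and -0.030 over the pericyte and smooth muscle list. Of 9 fibroblast markers 2 fell and none rose, with a median of -0.053. Over all genes tested, 3.34% rose and 2.33% fell. The part of these markers in the change of Nr3c2 was not tested. The median log2 change was -0.022 over the 8 genes and 0.017 over all genes.

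In females alone 2.84% of all genes passed, in males alone 1.91% and in the difference between the sexes in the response 0.396%, and none of the 8 genes did in any of these with limma. At an unadjusted p under 0.05 the counts were 4 of 8 in females, 2 of 8 in males and 1 of 8 in the difference, against 13.9%, 13.6% and 7.41% of all genes. Median changes of the 8 genes were -0.021 in females and 0.0013 in males, against 0.011 and 0.021 over all genes.

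**Figure D3:**
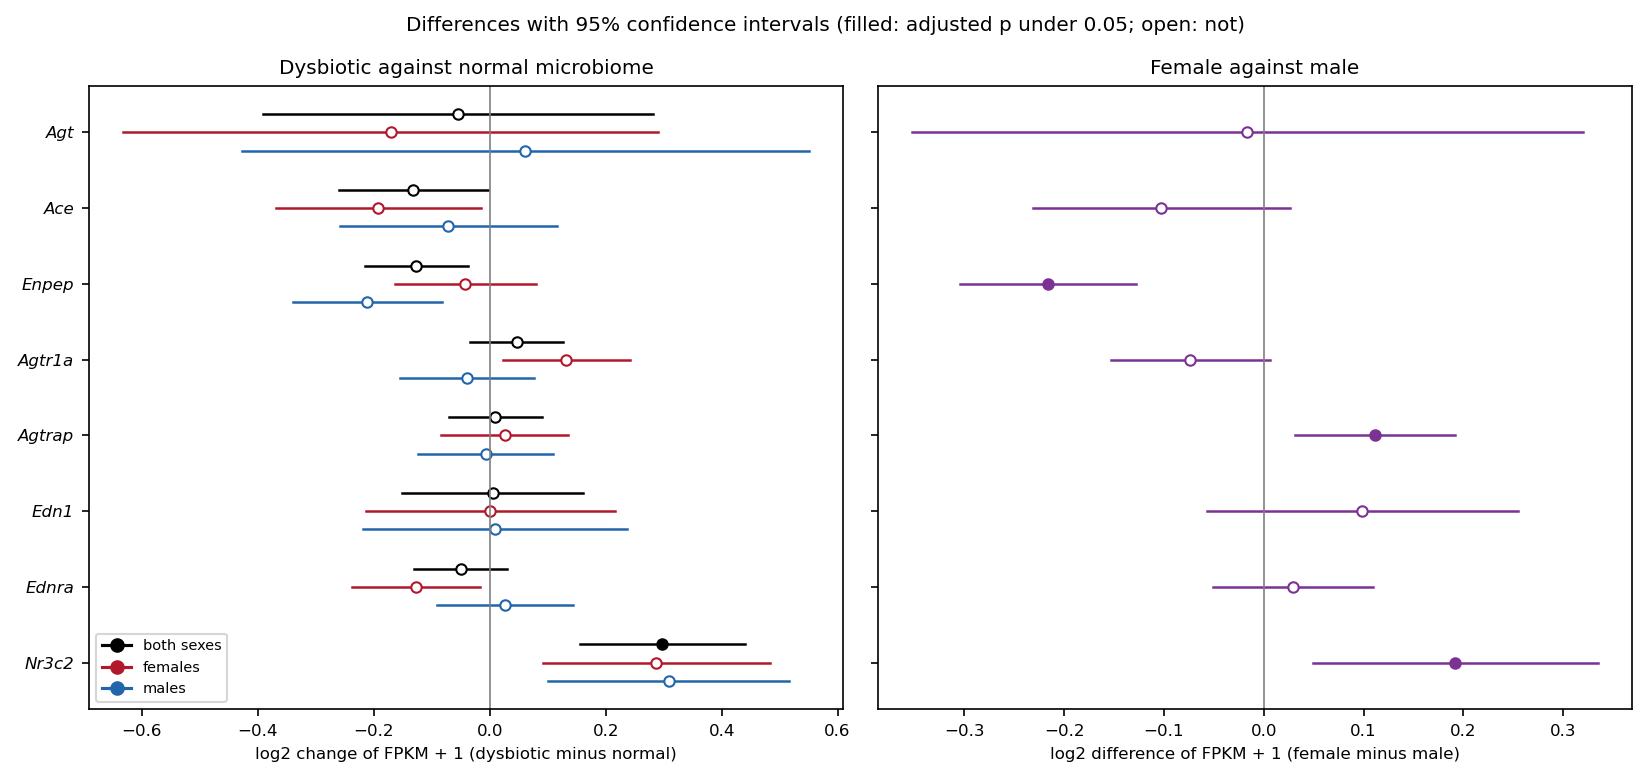
Differences of log2(FPKM + 1) with 95% confidence intervals for the 8 genes; left, dysbiotic minus normal over both sexes (black), in females (red) and in males (blue); right, female minus male over both microbiomes. Filled points have a limma adjusted p under 0.05: Nr3c2 on the left, and Enpep, Agtrap and Nr3c2 on the right.

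Female and male hearts differed in the transcripts of the angiotensin-trimming enzyme, the receptor-associated protein and the mineralocorticoid receptor, the last 2 close to the threshold. Enpep averaged 1.31 ± 0.121 FPKM in females and 1.67 ± 0.269 FPKM in males (SD, n = 10 and 9), a difference of -0.22 ± 0.04 (limma adjusted p = 0.000796). Its 5 F_NM values all lay below its 4 M_NM values, and with the dysbiotic microbiome 3 of 5 F_DM values lay below every M_DM value. Enpep passed in every fit run for this comparison.

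Nr3c2 averaged 1.80 ± 0.417 FPKM in females and 1.48 ± 0.365 FPKM in males, a difference of 0.19 ± 0.07 (limma adjusted p = 0.0388), and Agtrap averaged 7.87 ± 0.539 FPKM in females and 7.21 ± 0.315 FPKM in males, a difference of 0.11 ± 0.04 (limma adjusted p = 0.0332). Both differences are close to the threshold. Nr3c2 passed in 9 of 19 fits that left out 1 library and Agtrap in 10, and neither passed after median-ratio scaling (0.15, limma adjusted p = 0.0909, for Nr3c2 and 0.06, limma adjusted p = 0.170, for Agtrap). Under that scaling Ace (-0.16, limma adjusted p = 0.0395) and Agtr1a (-0.13, limma adjusted p = 0.0235) were lower in females. As measured, Ace differed by -0.10 ± 0.06 (limma adjusted p = 0.216), Agtr1a by -0.07 ± 0.04 (0.152), Edn1 by 0.10 ± 0.07 (0.329), Ednra by 0.03 ± 0.04 (0.592) and Agt by -0.02 ± 0.16 (0.950), none of them past the threshold. Over all genes tested, 23.4% were higher and 7.94% lower in females, against 2 and 1 of these 8 genes. The median difference over all genes was 0.045, and after median-ratio scaling higher calls did not outnumber lower ones. The excess of higher calls, and small positive differences, thus depend on the scaling. As measured, 3 of 7 tested adipocyte genes and 3 of 6 macrophage genes were higher in females. Of 9 endothelial markers 4 were higher and 1 lower in females, of 9 pericyte and smooth muscle markers 2 were higher, of 3 endocardial and of 8 cardiomyocyte markers 1 each was higher, and of 9 fibroblast markers 1 was lower. For all these markers, their part in these differences was not tested. In bulk tissue, fewer cells of a type and less RNA per cell cannot be told apart.

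The other genes of these hormone systems were grouped into 5 lists, and for each the counts in the comparison of the microbiomes over both sexes are given first. Among other mineralocorticoid and corticosteroid genes, 9 of 17 were tested, 2 rose, none fell and 7 did not pass. Over all genes tested, 3.34% rose and 2.33% fell. At an unadjusted p under 0.05 the count was 4 of 9, against 17.4% of all genes. Nr3c1, the glucocorticoid receptor gene and the closest relative of Nr3c2, was at 5.83, 5.82, 5.35, 5.24 and 6.05 FPKM in F_DM hearts and at 5.05, 5.84, 4.67, 4.71 and 5.12 FPKM in F_NM hearts. In males it was at 6.24, 6.72, 5.56, 5.18 and 6.20 FPKM in M_DM hearts and at 5.28, 4.90, 5.11 and 4.46 FPKM in M_NM hearts. The groups overlapped in both sexes, and the change was 0.18 ± 0.05 (limma adjusted p = 0.0243). That call ended without M_NM replicate 2 (0.18, limma adjusted p = 0.0502), M_NM replicate 4 (0.16, limma adjusted p = 0.0617) or F_NM replicate 4 (0.17, limma adjusted p = 0.0528).

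Nedd4l encodes a ubiquitin ligase that removes the epithelial sodium channel from the cell surface and is itself held back by the aldosterone-induced kinase SGK1. It was at 1.25 to 1.47 FPKM in F_DM and 1.16 to 1.35 FPKM in F_NM hearts, which overlapped. In males it was at 1.14 to 1.37 FPKM in M_DM and 0.972 to 1.06 FPKM in M_NM hearts, which did not. The change was 0.11 ± 0.03 (limma adjusted p = 0.0345), but it passed in only 9 of 19 fits that left out 1 library, with adjusted p up to 0.0711. Sgk1, the gene of that kinase, was named after its value was seen. Its change was negative, -0.16 ± 0.06 over both sexes (limma adjusted p = 0.113), -0.25 ± 0.08 in males (0.138) and -0.07 ± 0.08 in females (0.802), and did not pass. Other genes of that list went both ways over both sexes without passing, and are also named after their values were seen. Lcn2 (0.39 ± 0.17, limma adjusted p = 0.230) and Lgals3 (0.22 ± 0.13, 0.407) were positive, and Tsc22d3 (-0.13 ± 0.07, 0.404) was negative. Fkbp4 (0.02), Fkbp5 (0.01) and Hsd11b1 (-0.02) changed little. In the same list, Hsd11b2, the enzyme that shields the mineralocorticoid receptor from glucocorticoids in the kidney, was listed at 0 in 11 of 19 hearts and reached 0.0546 FPKM at most. The aldosterone synthase gene Cyp11b2 was not analysed here.

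Between the sexes 3 of the 9 tested genes of that list were higher and 1 was lower in females. The shares over all genes were 23.4% and 7.94%. Hsd11b1, the enzyme that regenerates active glucocorticoid, was at 1.75 to 2.55 FPKM in F_DM, 2.04 to 2.52 in F_NM, 3.28 to 4.73 in M_DM and 2.94 to 5.65 FPKM in M_NM hearts. No female heart reached any male heart, and the difference was -0.64 ± 0.08 (limma adjusted p = 1.02e-05). In both male groups the hearts with the highest and lowest liver sums also had the highest and lowest Hsd11b1. In females this held only for the highest F_DM heart. The difference passed in all 12 fits with other settings, that with the liver sum included (-0.82 to -0.56). The part of liver RNA in Hsd11b1 was not tested beyond these fits. Tsc22d3, the glucocorticoid-induced leucine zipper gene, was at 18.7 to 24.8 FPKM in F_DM, 19.7 to 26.7 in F_NM, 13.5 to 17.1 in M_DM and 13.5 to 19.7 FPKM in M_NM hearts. It was higher in females by 0.48 ± 0.07 (limma adjusted p = 7.73e-05), with overlap in 1 M_NM heart. Nedd4l was higher by 0.12 ± 0.03 (limma adjusted p = 0.00624) and Fkbp5, a receptor co-chaperone that glucocorticoids induce, by 0.27 ± 0.09 (limma adjusted p = 0.0344), the last in 11 of 19 fits that left out 1 library.

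**Figure D4:**
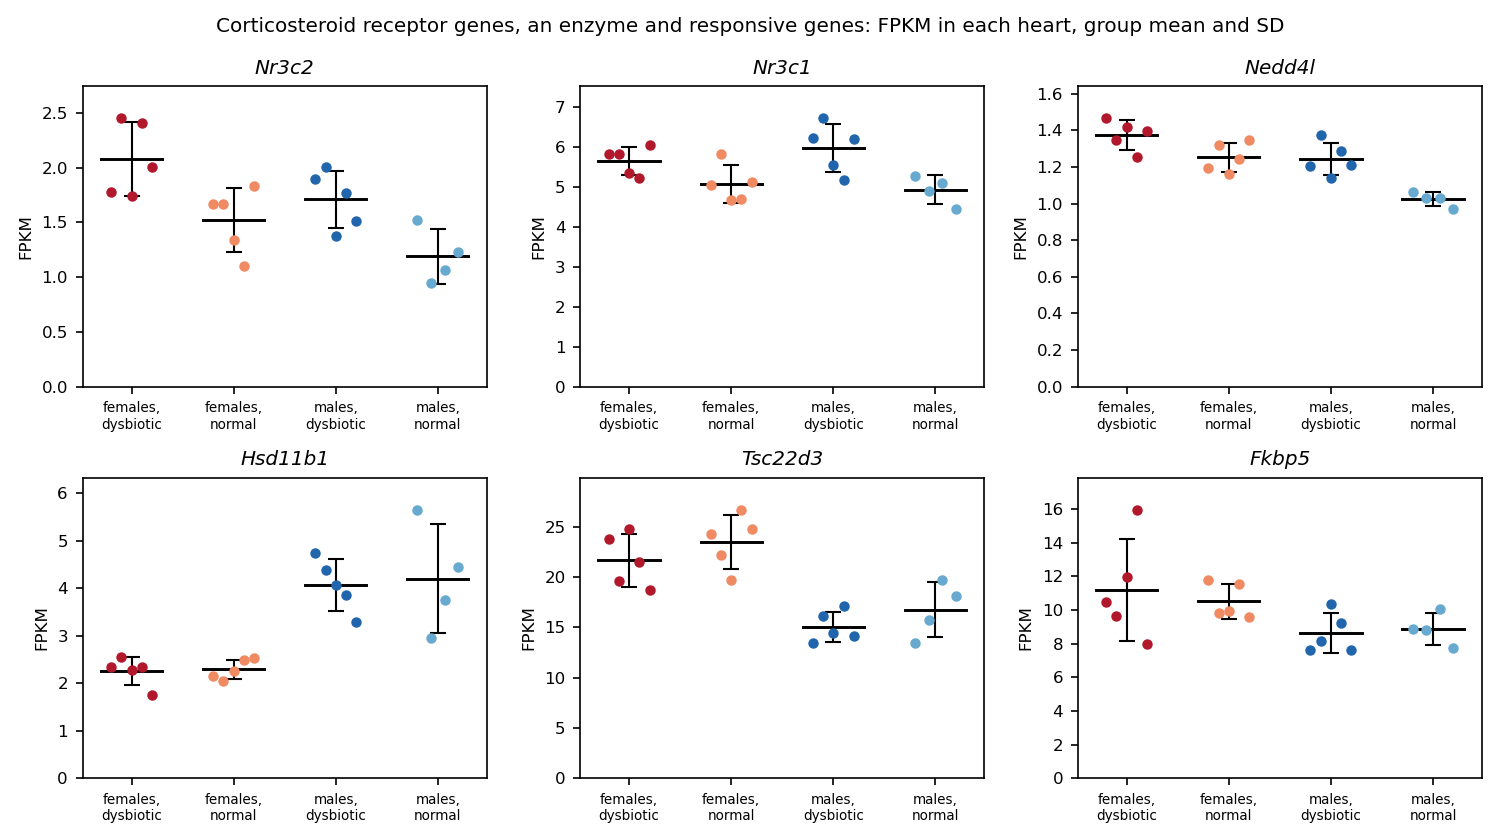
FPKM in each heart of Nr3c2, Nr3c1, Nedd4l, Hsd11b1, Tsc22d3 and Fkbp5, by group; points are hearts, the long bar is the group mean and the whiskers are the SD (n = 5, 5, 5 and 4). The first 3 are higher with the dysbiotic microbiome over both sexes, and the last 3 differ between females and males.

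Among 20 other enzymes and receptors of the angiotensin pathway, 11 were tested and none passed between the microbiomes with limma (1 at an unadjusted p under 0.05, against 17.4% of all genes; median change 0.01). Several other genes of the list, named for their role after their values were seen, were at low levels. Ren1, renin, was listed at 0 in 14 of 19 hearts and reached 0.125 FPKM, and the type 2 receptor gene Agtr2 was listed at 0 in 16. Mas1, the receptor for angiotensin 1-7, was at 0.0209 to 0.222 FPKM. Cma1, the mast cell chymase that can form angiotensin II, was at 0.142 to 1.10 FPKM. Between the sexes 4 of the 11 were higher in females and none lower, against 23.4% and 7.94% of all genes. The 4 were Ctsa (0.26 ± 0.04, limma adjusted p = 4.78e-05), Ctsd (0.20 ± 0.04, 0.000558), Thop1 (0.19 ± 0.05, 0.00408) and Rnpep (0.14 ± 0.05, 0.0491). Ctsa and Ctsd encode lysosomal proteases and Thop1 and Rnpep encode peptidases that can cut angiotensins. Rnpep passed in only 6 of 19 fits that left out 1 library.

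Of 7 other endothelin genes, 3 were tested and none passed between the microbiomes with limma. At an unadjusted p under 0.05 there were 0, against 17.4% of all genes, and the median change was -0.08. Ednrb, the endothelin B receptor, which on endothelium clears endothelin and releases nitric oxide, was at 2.71 to 3.24 FPKM in F_DM, 2.58 to 2.83 in F_NM, 2.63 to 3.47 in M_DM and 2.93 to 4.33 FPKM in M_NM hearts. All F_NM hearts were below all M_NM hearts, and the difference between females and males was -0.18 ± 0.05 (limma adjusted p = 0.0138). With the dysbiotic microbiome the means of Ednrb were 2.98 FPKM in F_DM and 3.00 FPKM in M_DM hearts, and with the normal microbiome 2.74 FPKM in F_NM and 3.80 FPKM in M_NM hearts. The difference between the sexes in the response of Ednrb was 0.34 ± 0.10 (limma adjusted p = 0.303) and did not pass.

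Downstream of the receptors, 24 of 25 genes for coupling and desensitisation were tested, and none passed between the microbiomes with limma. At an unadjusted p under 0.05 there were 3, against 17.4% of all genes, and the median change was 0.01. Between the sexes 2 of the 24 were higher and 3 lower in females, against 23.4% and 7.94% of all genes. Prkca, protein kinase C alpha, was lower, with a difference of -0.21 ± 0.04 (limma adjusted p = 0.000389), at 1.45 to 1.72 FPKM in F_DM, 1.72 to 1.96 in F_NM, 1.91 to 2.23 in M_DM and 1.83 to 2.45 FPKM in M_NM hearts. Rock2, a kinase that sustains contraction of vessel muscle, was lower too (-0.22 ± 0.05, limma adjusted p = 0.00221), as was Rgs4, a brake on Gq signalling (-0.17 ± 0.05, limma adjusted p = 0.0131). The call of Rgs4 was lost without the 4 libraries at the extremes of the liver sum (-0.11, limma adjusted p = 0.0647). Grk2, a receptor kinase, was higher by 0.10 ± 0.04 (limma adjusted p = 0.0475); it was named after its value was seen. The other gene counted as higher, Itpr2, an inositol trisphosphate receptor of heart muscle, reached 1 FPKM in 1 F_DM and 3 F_NM hearts and in no male heart. It therefore entered the test only through the sex in which it is high, and its values are a description: means of 0.884 FPKM in F_DM, 0.988 in F_NM, 0.733 in M_DM and 0.809 FPKM in M_NM hearts.

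Of 16 genes known to rise in heart cells given angiotensin, endothelin or aldosterone, 13 were tested, none rose with the dysbiotic microbiome and 1 fell (median change -0.09). Over all genes tested, 3.34% rose and 2.33% fell. At an unadjusted p under 0.05 the count was 5 of 13, against 17.4% of all genes. The gene that fell was Ccn2, connective tissue growth factor, a matrix protein that promotes scar formation. Ccn2 was at 23.3, 23.7, 31.0, 23.4 and 18.6 FPKM in F_DM hearts and at 49.7, 39.3, 34.5, 37.4 and 30.9 FPKM in F_NM hearts. In males it was at 24.6, 19.9, 42.2, 32.6 and 27.0 FPKM in M_DM hearts and at 48.8, 32.7, 50.4 and 35.9 FPKM in M_NM hearts. A single F_DM heart reached the F_NM range and a single M_DM heart passed the lower M_NM hearts. Ccn2 fell by 0.59 on the log2 scale (SE 0.13, limma adjusted p = 0.0137), and passed in all 19 fits that left out 1 library. It did not pass without the 4 libraries at the extremes of the liver sum (-0.55, limma adjusted p = 0.0598). Of 9 fibroblast markers 2 fell and none rose in the same comparison, with sums of 172 to 193 FPKM in F_DM, 180 to 200 in F_NM, 180 to 192 in M_DM and 175 to 210 FPKM in M_NM hearts; their part in the change of Ccn2 was not tested.

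Between the sexes 1 of 13 tested genes of that list was higher and 4 were lower in females. The shares over all genes were 23.4% and 7.94%. Myh7, the slow myosin heavy chain, was higher by 0.25 ± 0.05 (limma adjusted p = 0.000691). Acta1, skeletal actin (-1.12 ± 0.32, limma adjusted p = 0.0159), and Nppb, the gene of B-type natriuretic peptide (-0.90 ± 0.26, limma adjusted p = 0.0159), were lower; Nppb was named after its value was seen. The other 2 counted as lower entered the test only through male hearts, so their values are a description. Spp1, osteopontin, reached 1 FPKM in 3 M_DM and 2 M_NM hearts, with means of 0.462 FPKM in F_DM, 0.607 in F_NM, 1.004 in M_DM and 1.13 FPKM in M_NM hearts. Ccl2, a chemokine gene, reached 1 FPKM in 4 M_DM hearts alone, with means of 0.338 FPKM in F_DM, 0.371 in F_NM, 2.29 in M_DM and 0.511 FPKM in M_NM hearts. None of the 60 genes tested in these 5 lists passed with limma in females alone, in males alone or in the difference between the sexes in the response, where 6, 9 and 5 genes had an unadjusted p under 0.05, against 13.9%, 13.6% and 7.41% of all genes. Ccl2 is among the 60 although it entered the test only through M_DM hearts. Counts between the microbiomes that include Ccl2, those over both sexes too, are therefore a description.

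For a member gene, the genes most like it were those with the highest Pearson correlation of log2(FPKM + 1) over the 19 hearts after subtracting each group's mean; they were taken as the highest of all tested genes, so the values are a description. Agt was most like Rgs16 (r = 0.926), Vtn (0.904) and Hsd17b6 (0.896), of which Vtn, at 6.34 to 21.7 FPKM, encodes the plasma protein vitronectin made mainly by the liver. Nr3c2 was most like Lin52 (0.841), Slc16a10 (0.802) and Slco2b1 (0.791), the last 2 genes for membrane transporters. Ace was most like Prep (0.860), a peptidase gene of the angiotensin list, Agtr1a like Ppargc1b (0.815), Agtrap like Ptcd1 (0.899) and Ednra like Bcl2l13 (0.867). The highest value for Enpep, with Kdm2a (0.764), was lower. Genes of 1 heart share its library, depth and tissue makeup.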

How the data were processed

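The 9 genes and the gene lists were chosen with earlier results of these data known. Groups were taken from the labels of 19 libraries. The submitters' processing notes list, as tools of the authors, StringTie 1.3.4d, HISAT2 2.0.4, cutadapt 1.9 and DESeq2. They name build hg38, while 99.7% of the deposited gene IDs are mouse IDs of GENCODE M21. Per the file headers the authors deposited FPKM per gene and library, with a ratio (fold change of mean FPKM over both sexes, checked for 25417 genes), its log2, a p-value and a q-value. No counts are given, and since only 13.1% to 16.4% of low values lay on a whole-read step (tolerance 0.02), none were recovered; precision is that of the spread between mice, assumed independent. Transcripts of mitochondrial DNA made up 51.1% to 57.4% of each library's FPKM total.

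The 10866 genes that reached 1 FPKM in 4 or more libraries entered a single fit of all libraries with a mean for each group. Values were log2(FPKM + 1), and the fit used limma 3.58.1 in R 4.3.3 with an intensity trend and a robust empirical Bayes step. The model was tested on simulated data. A permutation test planned for members below that minimum was not needed. Of each further list, up to 4 genes that passed with the smallest p were named per comparison. Promoters are RefSeq's (GRCm38.p6), with windows for 8 members and none for Agtr1a. Alternatives covered scaling, pseudocount, minimum, model terms, weights, marker sums, replicate number and leaving out each library. Python 3.11.15, pandas 2.3.3 and matplotlib 3.10.9 drew the figures. Some genes are not reported here.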

Additional observations from a re-analysis of the deposited data

Results flagged for a closer look

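A heart was marked here when, in a group of 4 or 5, its distance to the nearest other value was unusually large for the group's whole range (Dixon's 95% value). Of 152 groups of values looked at, 8 had such a heart, and chance alone marks about 1 in 20. Among the 8 genes themselves 1 of 32 groups did: Ace in M_DM replicate 3 was at 14.4 FPKM, with the other M_DM hearts at 9.59 to 10.99 FPKM. The same heart had the highest summed atrial markers, 4239 FPKM against 2073 to 2613 in the other M_DM hearts, and the highest Acta1, 992 FPKM against 171 to 297. In M_NM replicate 2, Acta1 was at 668 FPKM with the others at 181 to 252, and Myh7 at 90.6 FPKM with the others at 79.7 to 80.8. In M_DM replicate 5, Rnpep was at 3.56 FPKM with the others at 2.73 to 2.81, summed cardiomyocyte markers were at 19024 FPKM with the others at 14272 to 15602, and summed liver markers at 27.9 FPKM with the others at 466 to 549.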

How the results depend on the processing

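Counts past the threshold over both sexes were 270 without a sex term; in males 97 without a minimum level, 106 with the replicate block, 81 with only males fitted and 127 with the atrial sum as a covariate; in females 585 with array weights; and in the difference between the sexes in the response 22 without a minimum and 85 with array weights. Of the 8 genes, 2 passed over both sexes and 1 in males after median-ratio scaling, 0 over both sexes without a sex term, 1 in females with array weights and 1 between the sexes without a minimum. Leaving out 1 library gave 443 to 677 genes over both sexes, 169 to 356 in females, 60 to 258 in males, 24 to 102 in the difference between the sexes and 2828 to 3816 between the sexes, with 1 to 2 of the 8 genes over both sexes, 0 in females, males and the difference, and 1 to 3 between the sexes. The male count was 60, 81 and 128 without M_NM replicates 2, 3 and 4, and 105 and 134 without M_DM replicates 2 and 3; the female count was 169, 201 and 172 without F_NM replicates 1, 3 and 4. Higher and lower calls split 363 and 253 over both sexes, 104 and 103 in males, 202 and 107 in females and 2548 and 863 between the sexes; after median-ratio scaling they split 335 and 457, 118 and 181, 194 and 199, and 1718 and 1822. After upper-quartile scaling the sexes split 1795 and 1730, with only males fitted the males 29 and 52, and without the liver extremes both sexes 450 and 195.

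Signs turned only in changes that were not called. Over both sexes, Agtrap was -0.019, -0.0037 and -0.0023 and Edn1 -0.012, -0.0019 and -0.0029 after median-ratio, upper-quartile and mitochondria-free scaling; Edn1 was -0.0075 with array weights, -0.011 with the liver sum, -0.0044 with the atrial sum, -0.00039 without a sex term and -0.025 without the liver extremes; Agt was 0.013 with array weights, 0.051 with the liver sum and 0.23 without the liver extremes. In males, Edn1 was -0.010, -0.00059 and -0.00084 under the same scalings and -0.0024 with the atrial sum, Ednra -0.0047 after median-ratio scaling and Agt -0.093 with the atrial sum. In females, Edn1 was -0.015, -0.0033 and -0.0049 under the scalings, -0.010 with a pseudocount of 0.1, -0.064 with array weights, -0.025 with the liver sum, -0.0063 with the atrial sum and -0.12 without the liver extremes; Agtrap was -0.00066 after median-ratio scaling, and without the liver extremes Agt was 0.053 and Enpep 0.0060. Between the sexes, Ednra was -0.026 and -0.022 after median-ratio and upper-quartile scaling, and Agt 0.063 with array weights, 0.12 with the liver sum, 0.0020 with the replicate block and 0.18 without the liver extremes. The difference in response of Nr3c2 was 0.0028 with the liver sum.

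Leaving out 1 library gave ranges across 0 for Agt (-0.12 to 0.072 over both sexes, -0.065 to 0.32 in males, -0.080 to 0.11 between the sexes), Agtrap (-0.0044 to 0.025 over both sexes, -0.025 to 0.024 in males, -0.0016 to 0.054 in females), Edn1 (-0.026 to 0.052, -0.052 to 0.048 and -0.062 to 0.095 in the same order, and -0.071 to 0.085 for the difference in response), Ednra in males (-0.00032 to 0.063) and the difference in response of Nr3c2 (-0.091 to 0.034). Causes were not tested. Fits with the atrial sum and without the 4 libraries at the extremes of the liver sum (the highest and the 3 lowest) were chosen after seeing the data. Over both sexes Nr3c2 was 0.28 to 0.46 in the other fits and kept its call in 13 of 14, with 0.30 (limma adjusted p = 0.0200) with the replicate block. Same-numbered libraries of different groups had no uniform likeness in their deviations (27 pairs, r -0.489 to 0.529, median -0.03, 10 over 0.1). Pairs of different number were not set beside them, so pairing by number was not tested. The numbers were not taken as pairs. With the block the call of Nedd4l over both sexes was lost (0.11, limma adjusted p = 0.0751), as was that of Rnpep between the sexes (0.13, limma adjusted p = 0.0780). Edn1 had the fewest estimated read pairs of the set, about 41.3 to 94.2 per library, and Agt had the widest interval. What limits their precision was not tested.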
